A study of Homo sapiens with 18 samples.

Results

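A set of 9 markers of the exocrine pancreas was followed across the series by symbol, and all were found among the 57808 gene rows of its table. They are the duct genes CFTR, SPP1 and PROM1, the keratin genes KRT7, KRT8, KRT18 and KRT19, and the acinar genes CPA1 and CLPS. The cells were of MEL1, an established human embryonic stem cell line whose insulin locus carries a GFP reporter. Sampling covered undifferentiated pluripotent cells (hPSC), definitive endoderm (DE), from which gut and pancreas form, and beta-like cells made from stem cells (sBC), the last sorted into GFP+ and GFP- fractions.

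The 18 libraries formed 9 groups of 2. RNA was sequenced at all 3 stages, with both fractions of sBC. Ribosome footprints, the stretches of mRNA that ribosomes protect from RNase I, were sequenced after pull-down with a FLAG antibody (IP-Ribo) in hPSC, DE and GFP+ sBC, and without pull-down (Ribo) in hPSC and DE. The labels give hPSC and DE of every assay an RPL22-FLAG genotype, so their ribosomes carry a tagged subunit and these groups have no untagged counterpart. The GFP+ sBC of IP-Ribo are labelled as having received RPL22-FLAG by lentivirus, and the GFP+ and GFP- sBC of the RNA assay are labelled by GFP alone. All groups come from this 1 line, and no label ties the paired libraries of a group to separate cultures, so a p-value here measures the spread between libraries alone, which may be technical. In bulk libraries such as these, fewer cells of a type and less RNA per cell cannot be told apart.

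The exocrine pancreas consists of acinar cells, which make digestive enzymes, and of ducts, which carry the enzymes to the gut in a bicarbonate-rich fluid. Ducts, acini and islets all descend from the same pancreatic epithelium, and cells with duct or acinar markers can arise beside hormone cells when stem cells are differentiated toward beta cells. CFTR is the apical chloride and bicarbonate channel of duct cells. SPP1 encodes osteopontin, a secreted phosphoprotein made by duct cells, and PROM1 encodes prominin 1 (CD133), a protein of apical membrane protrusions. Keratins are filament proteins that pair as a type II and a type I chain: KRT7 and KRT8 are type II, KRT18 and KRT19 type I, and KRT7 and KRT19 are the usual duct stains. CPA1 encodes the acinar enzyme carboxypeptidase A1, and CLPS encodes colipase, the cofactor of pancreatic lipase.

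On GRCh38.p14, CFTR (ENSG00000001626) lies at chr7:117480025-117668665 and CPA1 (ENSG00000091704) at chr7:130380494-130388108. SPP1 (ENSG00000118785) at chr4:87975714-87983411 and PROM1 (ENSG00000007062) at chr4:15968228-16084023 share a chromosome too. The type II keratin genes KRT7 (ENSG00000135480, chr12:52233243-52255853) and KRT8 (ENSG00000170421, chr12:52897191-52949860) lie in the keratin cluster of chromosome 12 together with the type I gene KRT18 (ENSG00000111057, chr12:52948855-52952906). KRT19 (ENSG00000171345) is at chr17:41523617-41528308 and CLPS (ENSG00000137392) at chr6:35794982-35797323. The table gives a single row for each gene, so transcripts of a gene were not told apart.

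The promoters of CFTR, SPP1 and CPA1 are shown because CFTR and SPP1 had the largest RNA differences between the sorted fractions and CPA1 represents the acinar enzymes. Each run of 300 bases is from RefSeq on GRCh38.p14, covers 250 bases before and 50 after the annotated start, and is written 5′ to 3′ on the strand of the gene. Capitals mark the matches to the motifs searched. The CFTR window is chr7:117479775-117480074, the SPP1 window chr4:87975464-87975763 and the CPA1 window chr7:130380244-130380543, all on the plus strand.
CFTR: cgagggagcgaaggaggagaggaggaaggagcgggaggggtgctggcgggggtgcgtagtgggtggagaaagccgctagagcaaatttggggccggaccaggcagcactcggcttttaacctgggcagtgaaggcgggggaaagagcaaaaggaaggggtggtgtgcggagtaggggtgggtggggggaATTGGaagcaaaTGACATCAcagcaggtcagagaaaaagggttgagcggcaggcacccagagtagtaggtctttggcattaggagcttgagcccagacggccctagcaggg
SPP1: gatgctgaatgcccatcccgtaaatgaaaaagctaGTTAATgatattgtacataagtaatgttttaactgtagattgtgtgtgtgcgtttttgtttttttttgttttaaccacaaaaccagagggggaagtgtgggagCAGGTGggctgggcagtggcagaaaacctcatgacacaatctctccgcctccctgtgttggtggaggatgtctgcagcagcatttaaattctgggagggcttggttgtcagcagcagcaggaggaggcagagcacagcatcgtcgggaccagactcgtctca
CPA1: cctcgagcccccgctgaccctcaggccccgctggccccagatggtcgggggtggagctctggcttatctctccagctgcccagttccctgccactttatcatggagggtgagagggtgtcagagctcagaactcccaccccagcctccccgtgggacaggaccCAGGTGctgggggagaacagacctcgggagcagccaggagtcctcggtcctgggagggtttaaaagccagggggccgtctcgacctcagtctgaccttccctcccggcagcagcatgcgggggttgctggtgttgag
Both strands were searched for 8 motifs: the TATA box TATAAA, the CCAAT box CCAAT, the AP-1 site TGANTCA, a CRE-like site TGACNTCA, the HNF1 half-site GTTAAT, a SOX core AACAAT, the FOXA core TGTTTAC and the E-box CACCTG of the acinar factor PTF1. The CFTR window held a CRE-like site 49 bases before the start and an inverted CCAAT box 61 bases before it. Across 35116 promoter windows of the same length, 7.72% held that CRE-like site and 34.6% a CCAAT box. The SPP1 window held an HNF1 half-site and an inverted E-box, which 6.88% and 20.6% of windows held. The CPA1 window held the inverted E-box, 87 bases before the start. A match is a description of the letters and was not tied to any binding data. RefSeq windows were also at hand for PROM1 and KRT8, so 5 of 9 members had one, and KRT7, KRT18, KRT19 and CLPS are named only.

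Total counts ran from 6606248 in DE IP-Ribo replicate 1 to 92533993 in DE RNA replicate 1, and were 8734208 and 7590105 in GFP+ sBC IP-Ribo. Levels are given as CPM, counts scaled to a common library total with TMM correction for composition. RNA libraries and footprint libraries were scaled separately, so a level in one assay is not on the scale of the other, and since CPM ignores gene length, levels are compared between libraries and not between genes. Some footprint libraries stood apart: a single feature without a gene symbol took 25.1% of the counts of DE Ribo replicate 1, and another took 19.8% and 17.2% of the GFP+ sBC IP-Ribo libraries. RNA of insulin (INS), whose locus drives the sorted reporter, was at 4400 to 4830 CPM in GFP+ and 980 to 1700 CPM in GFP- libraries. Both fractions expressed all 12 endocrine markers, with summed levels of 46200 to 52600 CPM in GFP+ and 26500 to 41900 CPM in GFP- libraries.

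RNA of CFTR and SPP1 set the sorted fractions apart. A gene is called here where its adjusted p was under 0.05. CFTR had 8.54 and 8.79 CPM in GFP+ sBC, against 399 and 829 CPM in GFP- sBC. SPP1 had 2.9 and 1.2 CPM in GFP+ sBC, against 96.0 and 71.7 CPM in GFP- sBC. Both genes were far lower in every GFP+ library than in any GFP- library. The log2 fold change of GFP+ over GFP- was -6.16 ± 0.51 for CFTR (SE, edgeR quasi-likelihood test over all genes, Benjamini-Hochberg adjusted p = 0.00311) and -5.37 ± 0.54 for SPP1 (adjusted p = 0.00482). PROM1 had 35.1 and 53.9 CPM in GFP+ sBC and 66.2 and 122 CPM in GFP- sBC, so the fractions did not overlap, but its difference of -1.08 ± 0.43 did not pass (adjusted p = 0.339).

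Of the keratins, KRT8 and KRT18 were called in the sort. KRT8 had 145 and 203 CPM in GFP+ sBC and 1360 and 714 CPM in GFP- sBC. KRT18 had 54.8 and 71.2 CPM in GFP+ sBC and 894 and 361 CPM in GFP- sBC. Both fell in GFP+ cells, KRT8 by a log2 fold change of -2.58 ± 0.43 (adjusted p = 0.026) and KRT18 by one of -3.32 ± 0.49 (adjusted p = 0.0184). Without GFP+ replicate 1, KRT8 lost its call (adjusted p = 0.117). KRT7 had 4.16 and 5.06 CPM in GFP+ sBC and 52.9 and 14.7 CPM in GFP- sBC, a log2 difference of -2.88 ± 0.61 just short of the threshold (adjusted p = 0.058). KRT7 did pass in the fit of all 8 RNA libraries (adjusted p = 0.0332), with the replicate number as a block (-2.61, adjusted p = 0.000102), with no filter (adjusted p = 3.25e-08) and by DESeq2 (adjusted p = 1.49e-05). KRT19 came closest to overlap, with 165 and 281 CPM in GFP+ sBC and 753 and 295 CPM in GFP- sBC, and its log2 difference of -1.23 ± 0.5 did not pass (adjusted p = 0.358), though it did with no filter (adjusted p = 0.0415).

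In GFP- sBC, all 4 keratins were higher in replicate 1 than in replicate 2. Keratins of stratified epithelia were uneven between replicates as well: 30 other keratin genes summed to 39.1 and 20.9 CPM in GFP+ replicates 1 and 2, against 695 and 31.2 CPM in GFP- replicates 1 and 2. KRT4, a keratin of moist stratified epithelia such as the esophagus, was at 8.34 and 0.16 CPM in GFP+ replicates 1 and 2, against 276 and 2.73 CPM in GFP- replicates 1 and 2. Its partner KRT13, chosen after its values were seen, was at 4.47 and 0.213 CPM in GFP+ and 187 and 0.94 CPM in GFP- replicates 1 and 2. Replicate 1 was thus the higher library for both genes in either fraction, as it was in IP-Ribo of GFP+ sBC. Of the 10 other keratins tested, none passed in either direction by the edgeR test, and KRT4 had a log2 difference of -5.05 ± 2.46 (adjusted p = 0.531). Without GFP- replicate 1, the log2 fold change was -2.06 for KRT8, -2.55 for KRT18, -1.70 for KRT7 and -0.43 for KRT19. The part of these other keratins in the members' differences was not tested.

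The acinar genes were present at low levels in both fractions. CPA1 had 1.26 and 1.55 CPM in GFP+ sBC, from 44 and 58 counts, against 4.9 CPM in each GFP- library, from 213 and 167 counts. The fractions did not overlap, and the log2 difference of -1.81 ± 0.48 did not pass in the fit of the 4 libraries (adjusted p = 0.119). CPA1 passed in the fit of all 8 RNA libraries (adjusted p = 0.0448) and with the replicate block (adjusted p = 0.0423). It also passed with no filter (adjusted p = 0.047) and by DESeq2 (adjusted p = 0.0161). With RLE size factors, a stricter filter, protein-coding genes only or pseudogene counts added, CPA1 stayed uncalled. CLPS had 3 and 2 counts in GFP+ and 11 and 11 counts in GFP- libraries, too few for the filter on low counts, and was not tested here.

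In all, 8 members passed the filter in the sort, and 4 of them were called lower in GFP+ cells and 0 higher, where the background over 19797 genes was 2.35% called lower and 0.0808% called higher. With 1 library left out, the log2 difference was -6.61 to -5.52 for CFTR and -6.13 to -4.86 for SPP1. It was -2.96 to -2.06 for KRT8, -3.82 to -2.55 for KRT18 and -3.51 to -1.7 for KRT7. The number of members called moved with the library left out, and the share of all genes called in those fits is not given here.

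**Figure D1:**
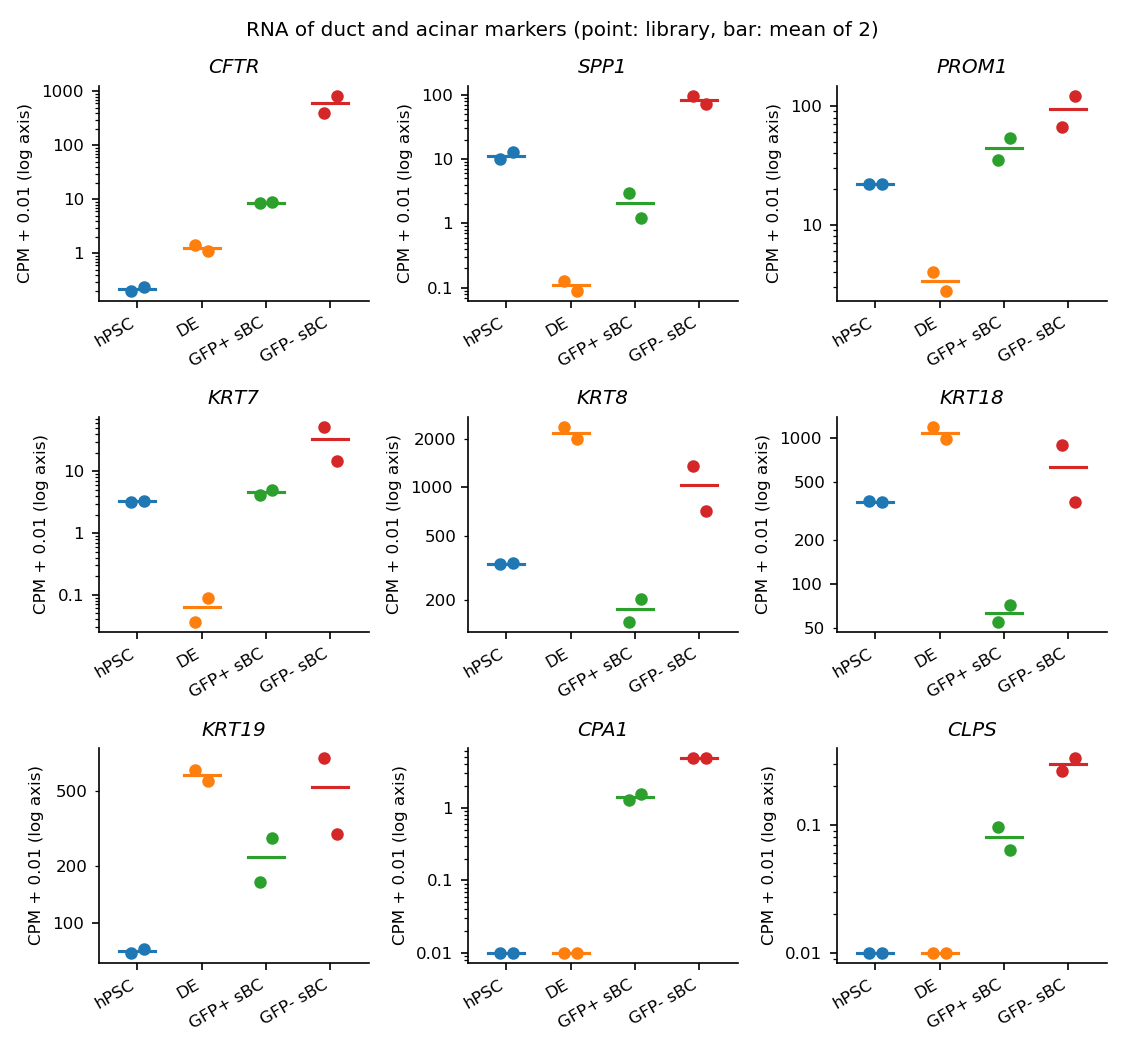
RNA level of each marker in CPM + 0.01 (log axis) for hPSC, DE, GFP+ sBC and GFP- sBC, with a point per library and a bar at the mean of 2. CFTR and SPP1 lie between 1.2 and 8.79 CPM in GFP+ sBC and at 71.7 CPM or above in GFP- sBC, while KRT8, KRT18 and KRT19 have their highest mean in DE.

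Other genes of the same cell types were read from lists. Of 25 other duct genes, all were tested, 6 fell and none rose in GFP+ cells, with a median log2 difference of -1.64 where the median of all genes was 0. SOX9, which directs gene expression in ducts and in pancreatic progenitors, fell (log2 fold change -4.35 ± 0.39, adjusted p = 0.0035), and SLC4A4, the sodium bicarbonate cotransporter of ducts, did too (-3.88 ± 0.4, adjusted p = 0.00529). The surface glycoprotein CD24, the most abundant duct gene not called, differed by 0.08 ± 0.46. Of 32 other acinar genes, 18 were tested and 3 fell, among them the granule protein GP2 (-5.57 ± 0.5) and the nuclear receptor NR5A2 (-4.12 ± 0.51). None rose, and the median over the 18 was -1.75. Over all genes 2.35% were called lower and 0.0808% higher, so the absence of a rise in either list says little.

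Partners of the members showed the same direction where they were called. Of 9 osteopontin receptor genes and related phosphoproteins tested, 3 fell: the integrin subunits ITGB6 (-6.1 ± 0.61) and ITGA5 (-3.31 ± 0.45), and CD44 (-2.29 ± 0.39). ITGB1, the shared beta chain of many integrins, differed by 0.46 ± 0.41 (adjusted p = 0.703). Of 12 genes of the apical membrane, 3 fell: the calcium-activated chloride channel ANO1 (-5.04 ± 0.61), the proton pump ATP12A (-5.8 ± 0.7) and the PROM1 relative PROM2 (-3.31 ± 0.51). Of 23 cell junction and keratin partner genes tested, CLDN6 alone fell (-3.98 ± 0.38), and desmoplakin (DSP), which anchors keratin filaments to desmosomes, differed by 0.17 ± 0.33. None of these lists held a gene that rose, but over all genes 0.0808% were called higher and 2.35% lower. The shared direction of the calls therefore says little about these lists. The 1 of 23 junction and keratin partner genes called is near the share of all genes.

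Markers of some other cells moved with the sort as well. The 10 mesenchyme markers summed to 318 to 400 CPM in GFP+ and 1810 to 1830 CPM in GFP- libraries, and 4 of 8 tested fell. Most of these sums was FN1, at 301 to 381 CPM in GFP+ and 1530 to 1700 CPM in GFP- libraries. COL1A1 was uneven between the GFP- libraries, from 6.14 to 41.8 CPM. The 6 cell cycle markers summed to 7.99 to 11.4 CPM in GFP+ and 60.3 to 159 CPM in GFP- libraries, and 4 of 6 fell. Of the markers tested, 2 of 9 pancreatic progenitor, 2 of 8 intestine and stomach and 1 of 8 liver markers fell. None of 3 endothelial, 2 immune and 6 pluripotency markers was called. The part of these markers in the members' differences was not tested.

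The step from hPSC to DE moved the members in opposite directions. CFTR had 1.43 and 1.1 CPM in DE and 0.191 and 0.225 CPM in hPSC. SPP1 had 0.118 and 0.0785 CPM in DE, from 9 and 6 counts, and averaged 11.3 ± 1.87 CPM in hPSC (SD, n = 2), from 680 and 899 counts. PROM1 had 3.98 and 2.77 CPM in DE and 22.2 and 22.1 CPM in hPSC. So CFTR was higher in DE while both of the other duct genes were lower, with no overlap between stages. CFTR rests on 109 and 84 counts in DE and 13 and 16 counts in hPSC. The log2 fold change of DE over hPSC was 2.64 ± 0.28 for CFTR (adjusted p = 7.21e-06), -6.77 ± 0.23 for SPP1 (adjusted p = 9.43e-10) and -2.66 ± 0.14 for PROM1 (adjusted p = 4.2e-07).

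KRT7 went with SPP1 and PROM1, and the other keratins against them. KRT7 had 0.0262 and 0.0785 CPM in DE, from 2 and 6 counts, against 3.16 and 3.35 CPM in hPSC. KRT8 had 2370 and 1990 CPM in DE and 331 and 338 CPM in hPSC, and KRT18 had 1190 and 977 CPM in DE and 367 and 363 CPM in hPSC. KRT19 had 650 and 566 CPM in DE and 69.3 and 73.1 CPM in hPSC. KRT7 fell in DE (log2 fold change -5.86 ± 0.31), while KRT8 (2.75 ± 0.08), KRT18 (1.62 ± 0.09) and KRT19 (3.15 ± 0.07) rose. CPA1 and CLPS had 0 counts in every hPSC and DE RNA library and were not tested.

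All 7 members tested were therefore called, 4 higher and 3 lower in DE, but this step called 38.7% of all genes tested as higher and 36.8% as lower, so a call alone says little. The other duct genes also went both ways, with 11 higher and 9 lower of 21 tested. SOX9 fell in DE (-3.65 ± 0.47), as SPP1 did. Of 24 junction and keratin partner genes 17 rose and 6 fell, with the desmosomal genes PKP2 (2.64 ± 0.07) and DSP (2.34 ± 0.06) among those that rose beside KRT8 and KRT18.

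Footprints gave the same signs for this step. In IP-Ribo, KRT8 had 13100 and 5870 CPM in DE and 972 and 1390 CPM in hPSC, and KRT19 had 1300 and 716 CPM in DE and 81.5 and 113 CPM in hPSC. SPP1 had 4 counts in each DE library of IP-Ribo, against 267 and 296 counts in hPSC. The log2 fold changes in IP-Ribo were 2.87 ± 0.42 for KRT8, 1.41 ± 0.3 for KRT18, 3.24 ± 0.35 for KRT19, -5.84 ± 0.59 for SPP1, -3.32 ± 0.37 for PROM1 and -4.49 ± 0.62 for KRT7. CFTR had 0 and 8 counts in DE and 1 and 2 counts in hPSC, a ratio of 3.33 with an exact 95% interval of 0.8 to 19.5 for counting error alone, and was not called (adjusted p = 0.328).

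Among the 7 members tested in IP-Ribo, 3 were called higher and 3 lower in DE, against a background of 9.78% higher and 12.5% lower. KRT18 lost its call there without either hPSC library (adjusted p = 0.138 and 0.0543) and without DE replicate 1 (adjusted p = 0.0574). In Ribo, the 6 members tested were all called with the same signs, 3 higher and 3 lower, against 17.2% and 16.9% of all genes. Their log2 fold changes were 2.68 ± 0.24 for KRT8, 1.24 ± 0.17 for KRT18, 2.9 ± 0.25 for KRT19, -6.5 ± 0.54 for SPP1, -2.82 ± 0.3 for PROM1 and -4.48 ± 0.37 for KRT7. Without hPSC Ribo replicate 1 or 2, 0 members passed, with adjusted p between 0.0572 and 0.124.

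**Figure D2:**
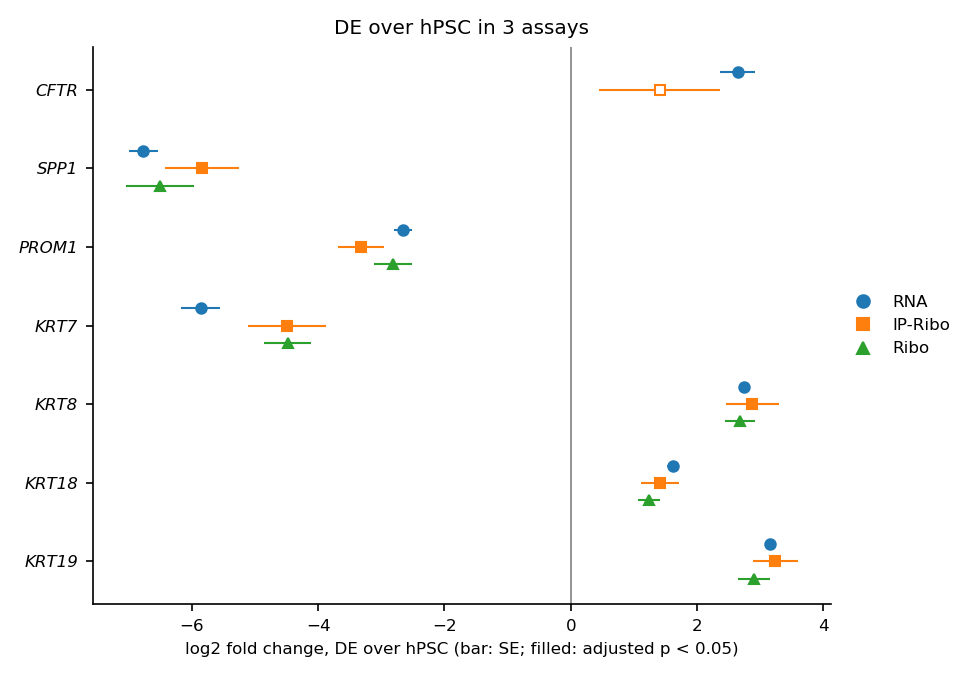
Log2 fold change of DE over hPSC for the members tested, in RNA, IP-Ribo and Ribo, with bars of 1 SE and filled symbols where the adjusted p is under 0.05. SPP1, PROM1 and KRT7 lie left of 0 and KRT8, KRT18 and KRT19 right of 0 in all 3 assays. CFTR is called in RNA alone.

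Footprints with and without pull-down were compared in hPSC and DE. In hPSC, KRT8 had 972 and 1390 CPM in IP-Ribo and 787 and 688 CPM in Ribo, and SPP1 had 12.9 and 12.6 CPM in IP-Ribo and 12.6 and 15.7 CPM in Ribo. No member was called between IP-Ribo and Ribo in hPSC, where 0.0899% of genes were higher and 1.06% lower, nor in DE, where 0.06% were higher and 0.803% lower. DESeq2 called 0 members in hPSC and 1 in DE, KRT19. In the edgeR test at an unadjusted p under 0.05, none of the 6 members tested in hPSC passed. In DE 3 did, namely KRT8 (log2 difference 1.04 ± 0.39), KRT18 (0.66 ± 0.27) and KRT19 (0.99 ± 0.34). The share of all genes called by DESeq2 or at the unadjusted threshold is not given here, so these counts have no background beside them.

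In GFP+ sBC the RNA of the duct genes stood in a mixed order to the earlier stages. CFTR rose over hPSC by a log2 fold change of 5.36 ± 0.44 and over DE by 2.78 ± 0.36. SPP1 was lower in GFP+ sBC than in hPSC (-2.47 ± 0.41) and higher than in DE (4.35 ± 0.53). PROM1 was higher than in DE (3.72 ± 0.39) and, by a small margin, than in hPSC (1.01 ± 0.35, adjusted p = 0.0381), a call that was lost without GFP+ replicate 2 (adjusted p = 0.203) or either hPSC library (adjusted p = 0.147 and 0.149).

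The keratins of GFP+ sBC differed from one another in their relation to the earlier stages. KRT18 was lower than in hPSC (-2.53 ± 0.41) and than in DE (-4.11 ± 0.43), and KRT8 was lower than in DE (-3.64 ± 0.35). Against hPSC, KRT8 differed by -0.94 ± 0.32 (adjusted p = 0.0336), which did not pass with any 1 of the 4 libraries left out (adjusted p = 0.0591 to 0.225). KRT19 was above hPSC (1.65 ± 0.44, adjusted p = 0.0131) and below DE (-1.45 ± 0.43, adjusted p = 0.0223). Against hPSC the KRT19 call was lost without GFP+ replicate 2 or either hPSC library (adjusted p = 0.0659 to 0.074), and against DE without GFP+ replicate 1 or either DE library (adjusted p = 0.0583 to 0.143). KRT7 was higher than in DE (6.4 ± 0.8) and differed from hPSC by 0.5 ± 0.55 (adjusted p = 0.453).

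CPA1 and CLPS had RNA counts in the sBC libraries and 0 in all hPSC and DE RNA libraries, and in footprints of hPSC and DE the sole exception was CPA1 with 2 counts in DE Ribo replicate 2. CPA1 was at least 65.3-fold higher in GFP+ sBC than in hPSC and at least 71.8-fold higher than in DE, taking 3 counts over a group as the floor for the groups at 0. CLPS, with 5 counts over both GFP+ libraries, was at least 3.2-fold higher than in hPSC and at least 3.52-fold higher than in DE, and its call was lost when any 1 library was left out (adjusted p from 0.0621 to 0.108). The CLPS call was lost too with the replicate block (adjusted p = 0.0566 against hPSC and 0.0529 against DE) and by DESeq2 (adjusted p = 0.0687 and 0.0582). With CLPS counted, against hPSC 5 of 9 members were called higher and 3 lower in GFP+ sBC, where 30.4% of all genes were higher and 30.9% lower. Against DE 6 were called higher and 3 lower, where the background was 29.9% and 30.9%. Both counts of higher members include CPA1 and CLPS, which could be called only as higher because hPSC and DE had 0 counts of them.

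GFP- sBC held the highest mean RNA of CFTR, SPP1, PROM1, KRT7, CPA1 and CLPS, the last from 22 counts. The share of all genes with their highest mean in this group was not computed. CFTR rose over hPSC by 11.51 ± 0.52 on the log2 scale and over DE by 8.92 ± 0.46. SPP1 rose over hPSC by 2.89 ± 0.4 and over DE by 9.71 ± 0.58, PROM1 by 2.08 ± 0.36 and 4.8 ± 0.41, and KRT7 by 3.38 ± 0.59 and 9.27 ± 0.84. CPA1 was at least 227-fold higher than in hPSC and at least 250-fold higher than in DE, and CLPS at least 13.2-fold and 14.5-fold higher. KRT8 (1.63 ± 0.32) and KRT19 (2.88 ± 0.46) rose over hPSC, and KRT18 differed by 0.78 ± 0.39 (adjusted p = 0.115).

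Against DE, KRT8 was lower in GFP- sBC (-1.07 ± 0.32, adjusted p = 0.0218), while KRT18 (-0.79 ± 0.39, adjusted p = 0.113) and KRT19 (-0.21 ± 0.43, adjusted p = 0.683) did not pass. These values rest on which GFP- library is used: without GFP- replicate 1, KRT18 was at -1.55 and KRT19 at -1.01 and both were called. KRT8 lost its call without either DE library (adjusted p = 0.107 and 0.0541). GFP- sBC had 8 members called higher and 0 lower against hPSC, with 31.2% and 28.3% of all genes called. Against DE 6 were higher and 1 lower, with 30.4% and 28.1%. The counts of higher members include CPA1 and CLPS, which had 0 counts in hPSC and DE RNA and could be called only as higher.

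From the highest mean RNA to the lowest, the order of the groups was GFP- sBC, GFP+ sBC, DE and hPSC for CFTR, and each neighbour in it differed in the fit of all 8 RNA libraries. For SPP1 it was GFP- sBC, hPSC, GFP+ sBC and DE, again with each step called. PROM1 and KRT7 had the order GFP- sBC, GFP+ sBC, hPSC and DE. Within it PROM1 did not pass between the sorted fractions (adjusted p = 0.137), and KRT7 did not pass between GFP+ sBC and hPSC. KRT8, KRT18 and KRT19 all had DE first and GFP- sBC second. For KRT8 and KRT18 the GFP+ sBC came last, below hPSC, and for KRT19 hPSC came last.

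Over the 8 RNA libraries, Pearson's r of log2(CPM + 0.5) was 0.9 between SPP1 and KRT7, 0.91 between PROM1 and KRT7 and 0.93 between KRT8 and KRT18. Between CFTR and KRT18 it was -0.01. These r describe 8 libraries in 4 groups of 2, which share stage, and carry no test. The protein-coding genes most like CFTR by the same measure were FILIP1L (0.993), TM4SF1 (0.992) and C6 (0.992). Those most like SPP1 were CXCL3 (0.991), SOX9 (0.983) and TTYH1 (0.981), and those most like KRT8 were CHST3 (0.994), KEL (0.985) and ANXA3 (0.985).

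The footprints of GFP+ sBC differed from the RNA of GFP+ sBC most in CFTR and SPP1 among the members. CFTR had 216 and 336 CPM in IP-Ribo of GFP+ sBC, where RNA of the GFP+ fraction had 8.54 and 8.79 CPM and RNA of the GFP- fraction 399 and 829 CPM. SPP1 had 97.5 and 47.4 CPM in IP-Ribo of GFP+ sBC, beside 2.9 and 1.2 CPM in GFP+ RNA. On these separately scaled levels, CFTR footprints lay above both GFP+ RNA libraries and below both GFP- RNA libraries, and SPP1 footprints lay above both GFP+ RNA libraries. The log2 ratio of mean IP-Ribo CPM to mean RNA CPM in GFP+ sBC was 4.99 for CFTR and 5.15 for SPP1. Over the 11827 protein-coding genes above a floor of counts in both assays, the median was -1.05 and the 95th percentile 1.39. The ratio was 0.04 for PROM1, 3.01 for KRT7, 3.41 for KRT8, 2.63 for KRT18, 1.23 for KRT19 and 0.72 for CPA1.

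**Figure D3:**
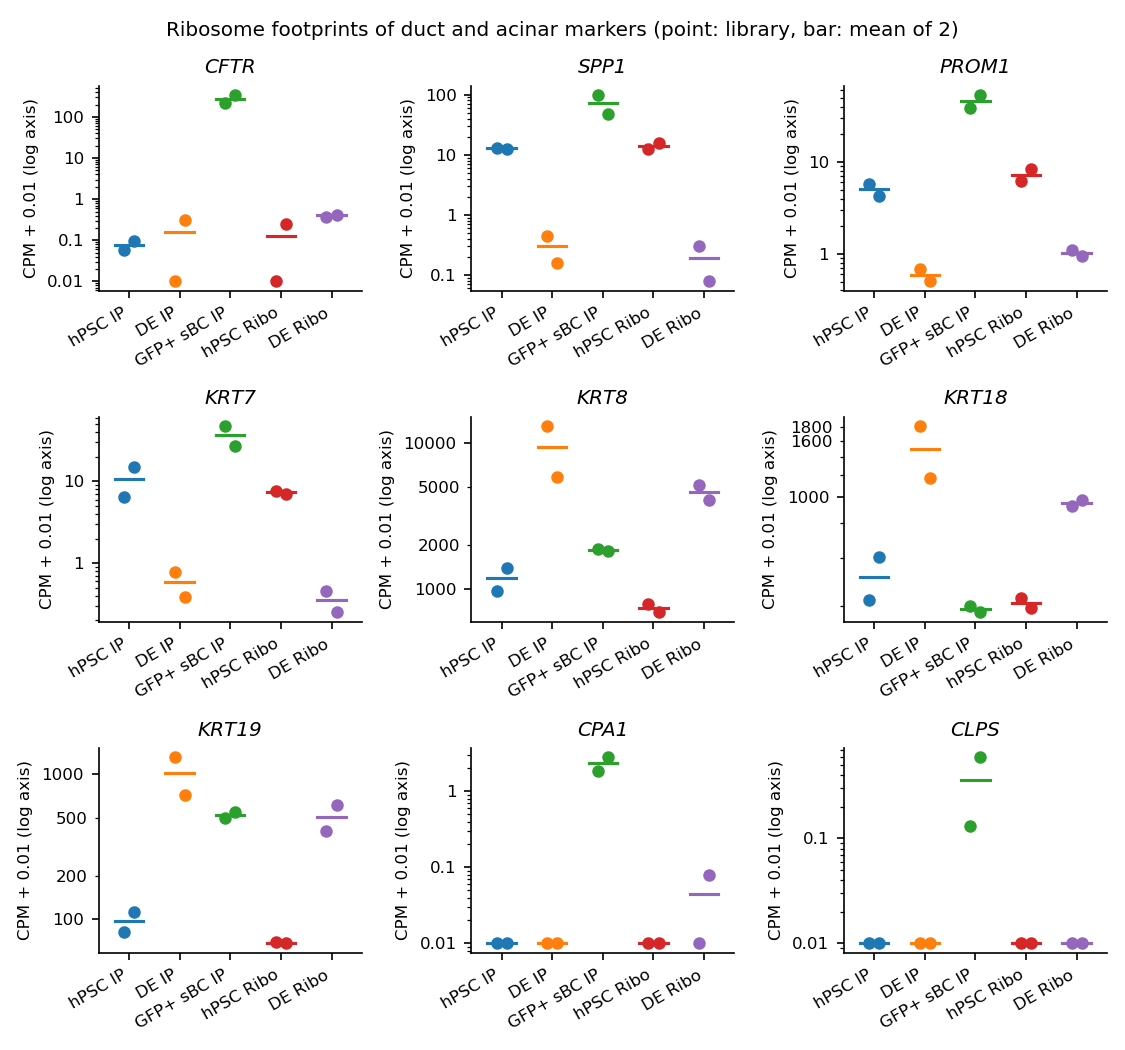
Footprint level of each marker in CPM + 0.01 (log axis), IP-Ribo of hPSC, DE and GFP+ sBC and Ribo of hPSC and DE, with a point per library and a bar at the mean of 2. CFTR reaches 216 and 336 CPM in GFP+ sBC IP-Ribo and stays at or below 0.413 CPM in all 8 other footprint libraries.

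Within IP-Ribo, GFP+ sBC had more footprints of CFTR, SPP1, PROM1 and CPA1 than the earlier stages. Of 13 other acinar genes tested against DE, 7 were higher and 3 lower. CFTR had 1766 and 2887 counts in GFP+ sBC, against 1 and 2 counts in hPSC and 0 and 8 in DE. The ratio was 4090 over hPSC, with an exact 95% interval for counting error of 1400 to 19900, and 1230 over DE (623 to 2850). SPP1 rose by a log2 fold change of 2.53 ± 0.42 over hPSC and 8.37 ± 0.61 over DE, and PROM1 by 3.21 ± 0.31 and 6.53 ± 0.39. SPP1 was thus higher than in hPSC in footprints and lower than in hPSC in RNA.

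KRT7 footprints, at 47.2 and 27.0 CPM in GFP+ sBC, were above the 6.43 and 14.8 CPM of hPSC (1.83 ± 0.48, adjusted p = 0.0148) and above DE (6.33 ± 0.65). Without GFP+ sBC replicate 1 or hPSC replicate 1, the KRT7 call against hPSC was lost (adjusted p = 0.0931 and 0.0719). KRT19 was above hPSC (2.46 ± 0.34) and differed from DE by -0.78 ± 0.33 (adjusted p = 0.0811). KRT8 differed from hPSC by 0.68 ± 0.4 (adjusted p = 0.176) and KRT18 by -0.36 ± 0.3 (adjusted p = 0.32), and both were below DE (-2.19 ± 0.41 and -1.77 ± 0.3). CPA1, with 15 and 24 counts in GFP+ sBC, was at least 34.3-fold higher than in hPSC and 27.5-fold higher than in DE, and lost its call against DE without GFP+ sBC replicate 2 (adjusted p = 0.0562). CLPS had 1 and 5 counts in GFP+ sBC, none in the other IP-Ribo libraries, and was not tested.

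Of 8 members tested in IP-Ribo, 6 were called higher and 0 lower against hPSC, with 30.4% and 28.5% of all genes called. Against DE 5 were higher and 2 lower, with 27.8% and 24.8% called. Both counts of higher members include CPA1, which had 0 counts in hPSC and DE IP-Ribo and could be called only as higher. The 12 endocrine markers all rose over hPSC in the same libraries, and INS was at 2470 to 3180 CPM in GFP+ sBC IP-Ribo.

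The change of IP-Ribo relative to RNA between stages, often read as translational efficiency (TE), was tested as the interaction of assay and stage over 12 libraries. Relative to hPSC, GFP+ sBC had a higher ratio for CFTR (log2 change 6.39 ± 0.75, adjusted p = 0.000466), SPP1 (4.75 ± 0.58, adjusted p = 0.000635), PROM1 (1.96 ± 0.38, adjusted p = 0.00655) and KRT18 (1.92 ± 0.35, adjusted p = 0.00422). KRT8 (1.37 ± 0.47, adjusted p = 0.0753), KRT7 (1.07 ± 0.56) and KRT19 (0.56 ± 0.43) did not pass. For CFTR the hPSC side rests on 3 IP-Ribo counts over both libraries. PROM1 lost its call without hPSC IP-Ribo replicate 2 (adjusted p = 0.0605).

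Relative to DE the same 4 genes were called. CFTR was at 7.15 ± 0.55, SPP1 at 3.58 ± 1.05 (adjusted p = 0.047), PROM1 at 2.31 ± 0.48 and KRT18 at 1.79 ± 0.35. For CFTR the DE side rests on 8 IP-Ribo counts, all in replicate 2, and leaving out 1 library gave 6.74 to 14.51. For PROM1 it rests on 6 and 13 IP-Ribo counts. The SPP1 call held in just 2 of the 8 fits that each dropped a library, those without GFP+ sBC RNA replicate 1 and without GFP+ sBC IP-Ribo replicate 2, and its adjusted p was 0.059 to 0.256 in the other 6, while PROM1 was lost without DE IP-Ribo replicate 2 (adjusted p = 0.0893). KRT7, KRT8 and KRT19 did not pass against DE, at -0.52 ± 0.78, 0.92 ± 0.46 and 0.13 ± 0.43. The comparisons with hPSC and with DE share the GFP+ sBC libraries. Of 7 members tested, 4 were higher and 0 lower in each, where against hPSC 11% of all genes were higher and 3.98% lower, and against DE 8.84% and 5.32%. Between DE and hPSC none of the 7 members passed (0.0991% of all genes higher and 0.0675% lower), with no unadjusted p under 0.05 in the edgeR test and 0 calls by DESeq2.

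**Figure D4:**
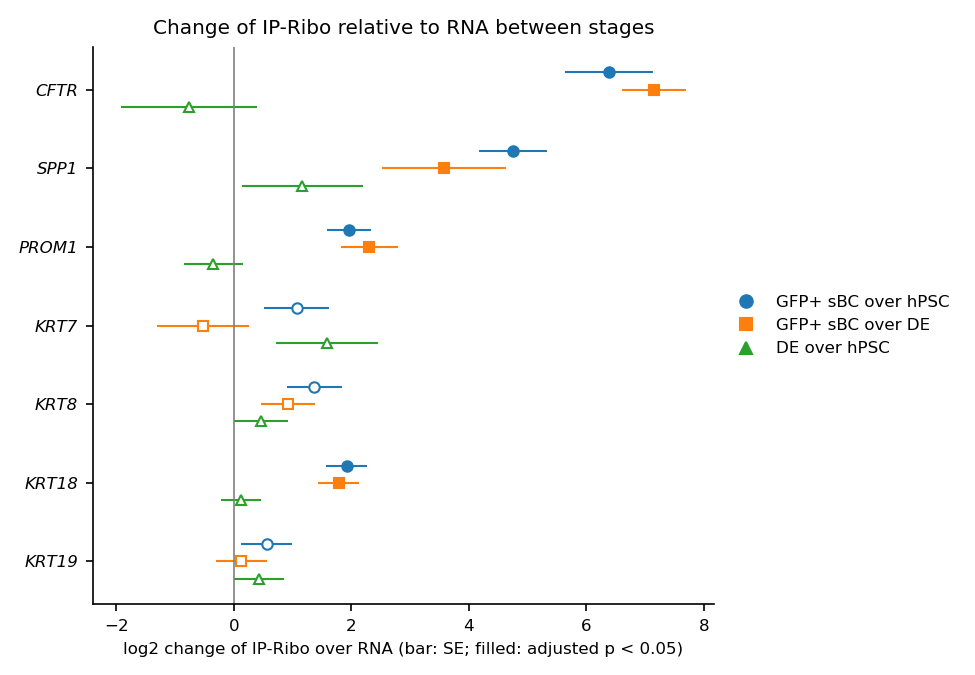
Log2 change of IP-Ribo relative to RNA between stages for the 7 members tested, with bars of 1 SE and filled symbols where the adjusted p is under 0.05. CFTR, SPP1, PROM1 and KRT18 are filled and right of 0 for GFP+ sBC over hPSC and over DE, and no symbol is filled for DE over hPSC.

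The RNA and the IP-Ribo libraries of GFP+ sBC differ in more than the assay, because lentiviral RPL22-FLAG is named for the IP-Ribo cells alone, and assay and cells cannot be told apart here. Other duct, acinar and non-endocrine genes stood beside CFTR and SPP1. SLC4A4 was at 94.6 to 184 CPM in GFP+ sBC IP-Ribo, beside 19.3 to 23.2 CPM in GFP+ RNA and 240 to 383 CPM in GFP- RNA. Ratios were taken for genes with at least 20 counts in each assay. The median log2 ratio of IP-Ribo to RNA in GFP+ sBC was 2.17 over 10 such acinar genes and 0.43 over 20 duct genes. It was 3.38 over 8 other keratins and 0.45 over 12 endocrine markers. Genes low in either assay were thus left out, such as AMY2B, with a mean of 6.1 CPM in GFP+ RNA and 0 in IP-Ribo. KRT6A, with 0 CPM in GFP+ RNA and 7.5 in IP-Ribo, was left out too.

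Marker lists of other cells went both ways between these separately scaled assays. Mesenchyme markers summed to 1130 to 1400 CPM in GFP+ sBC IP-Ribo, beside 318 to 400 CPM in GFP+ RNA, and cell cycle markers to 34.1 to 79.7 CPM, beside 7.99 to 11.4 CPM. Liver markers also had higher sums in IP-Ribo, at 12100 to 14000 CPM beside 5960 to 8720 CPM. Sums were lower in IP-Ribo for pancreatic progenitor markers, at 305 to 316 CPM beside 590 to 629 CPM, for definitive endoderm markers, at 57.6 to 62.7 CPM beside 174 to 189 CPM, and for pluripotency markers, at 4.19 to 6.0 CPM beside 18.3 to 20.7 CPM. Of the 12 endocrine markers, 8 had a higher mean CPM in IP-Ribo than in GFP+ RNA, and INS was among the others with a log2 ratio of -0.71. Other keratins were uneven between the IP-Ribo libraries of GFP+ sBC, with sums of 240 and 36.3 CPM in replicates 1 and 2, and KRT4 at 76.4 and 1.05 CPM. Their part in the ratios of the members was not tested.

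In the interaction tests, 9 of 24 other duct genes tested had a higher ratio in GFP+ sBC than in hPSC and none a lower one, with SLC4A4 (4.43 ± 0.49) and SOX9 (4.08 ± 0.57) among them. Of 19 acinar genes 5 were higher and none lower, including SPINK1 (4.31 ± 0.62), a trypsin inhibitor of acinar cells. Of 6 cell cycle markers 5 were higher. Of 10 endocrine markers tested, 2 were higher and none lower. Over all genes in this comparison 11% were higher and 3.98% lower, and the endocrine count is near that share. The median log2 change was 2.32 for endocrine markers, between 1.36 for duct and 4.31 for acinar genes, and 0.07 for all genes. The hPSC side of many of these genes was near the floor. In hPSC IP-Ribo, 6 of 12 listed endocrine, 14 of 32 acinar and 3 of 25 duct genes had 0 counts. SPINK1 was at 0.0848 to 0.0967 CPM there. These medians therefore rest in part on very low counts, and their order was not tested. Higher ratios were also found for 6 of 9 osteopontin receptor genes, 10 of 24 junction genes and 5 of 8 mesenchyme markers, with none lower. Of 7 pancreatic progenitor markers, 2 were higher and 1 lower, with a median of -0.56.

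KRT8, KRT18 and KRT19 have many processed pseudogenes, and short reads can be shared among them, so their counts are uncertain to that extent. The table holds 51 pseudogene rows of KRT8, 67 of KRT18 and 5 of KRT19. Pseudogene counts came to at most 5.8% of the parent's counts for KRT8 and 5.47% for KRT19, but reached 54.7% for KRT18 in DE Ribo replicate 1. A single row, KRT18P53, held 6807 counts in that library and 894 and 803 counts in the GFP+ sBC IP-Ribo libraries, while all 8 RNA libraries had 0. The KRT8 and KRT18 genes also lie side by side on chromosome 12 with annotated intervals that overlap (52897191 to 52949860 and 52948855 to 52952906, GRCh38.p14), and the strand setting of the counting is not given in the sources used here. The antisense row KRT7-AS held at most 7 counts in any library and CFTR-AS1 held 0.

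With these limits, the ratio of KRT8 to KRT18 counts, whose proteins partner in simple epithelia, is given as a description. In RNA it was 1.99 and 2.03 in DE and 0.9 and 0.93 in hPSC, and 2.65 and 2.86 in GFP+ sBC and 1.52 and 1.98 in GFP- sBC. In IP-Ribo it was 2.32 and 2.31 in hPSC, 7.21 and 5.02 in DE and 4.72 and 4.84 in GFP+ sBC, and in Ribo it was 5.58 and 4.18 in DE and 1.85 and 1.75 in hPSC. Footprint ratios were thus above the RNA ratios at each stage measured, with no overlap. With pseudogene rows added to their parents, the ratio in GFP+ sBC IP-Ribo was 3.7 and 3.88 and in DE Ribo 3.62 and 3.99, still above RNA. The ratio is of counts without length correction, so it is not a ratio of molecules.

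**Figure D5:**
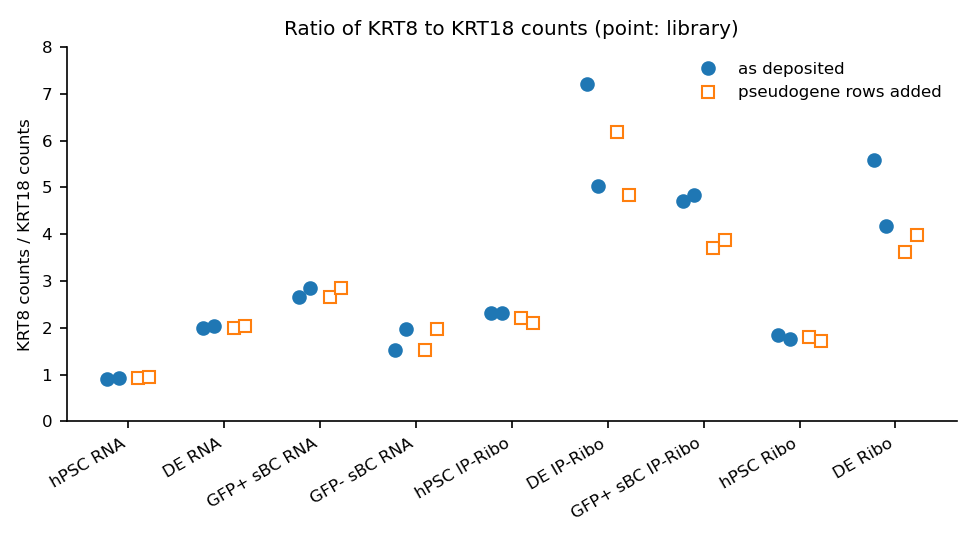
Ratio of KRT8 to KRT18 counts in every library, as deposited (filled circles) and with pseudogene rows added to each parent (open squares). Within each footprint assay the DE libraries have the highest ratios as deposited, from 4.18 to 7.21, and hPSC RNA has the lowest of all libraries at 0.9 and 0.93.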

How the data were processed

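The authors deposited 1 table of estimated counts for 57808 genes in 18 libraries, of which 16.8 to 31.3% of values per library were not whole numbers, and these expected counts were rounded. Per the submitters' processing notes, Salmon, DESeq2, UMI-tools, cutadapt and Bowtie were used with GRCh38, and which step served which assay is not given in the sources used here. Libraries held 6606248 to 92533993 counts, which limits genes with few counts most in the footprint libraries. Groups were taken from the labels. Each comparison was tested with edgeR 4.0.16 in R 4.3.3 (filterByExpr, TMM, robust quasi-likelihood test) over all genes, with Benjamini-Hochberg adjustment and a threshold of 0.05. The standard error of a log2 fold change is its size over the square root of F. Alternatives were RLE size factors, no or a stricter filter, DESeq2 1.42.0, a replicate block, protein-coding genes only, pseudogene counts added to the parent, other sets of libraries in the fit, Ribo in place of IP-Ribo, and leaving out each library. The ratios of IP-Ribo to RNA within a stage and of KRT8 to KRT18 were chosen after seeing the data. The fits were tested on simulated data. Intervals for low counts cover counting error alone. The members and gene lists were chosen with earlier results of these data known. From each list the text could name the called genes of largest change and the most abundant gene not called. The likeness of other genes was measured by Pearson's r over the RNA libraries.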

Additional observations from a re-analysis of the deposited data

Results flagged for a closer look

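The ratio of IP-Ribo to RNA changed between stages for 4 members by the interaction test. In GFP+ sBC over hPSC the log2 change was 6.39 for CFTR, 4.75 for SPP1, 1.96 for PROM1 and 1.92 for KRT18. In GFP+ sBC over DE it was 7.15 for CFTR, 3.58 for SPP1, 2.31 for PROM1 and 1.79 for KRT18. The CFTR values rest on 3 IP-Ribo counts in hPSC and 8 in DE. Both comparisons use the same GFP+ sBC libraries, whose IP-Ribo cells alone are labelled as carrying lentiviral RPL22-FLAG, so assay and cells cannot be told apart.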

How the results depend on the processing

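With 2 libraries a group, calls near the threshold depend on single libraries, and depth limits CFTR, SPP1, CPA1 and CLPS where they had few counts. Across expressed genes the same replicate number showed no pairing of samples (correlations of deviations from -0.3 to 0.19). Some genes did keep the same order in every sBC group. SPP1, KRT4 and KRT13 were higher in replicate 1 each time, and CFTR and PROM1 in replicate 2. KRT7, KRT8, KRT18 and KRT19 changed order. Whether shared cultures lie behind this was not tested. The replicate block gave 6 called members in the sort and 4 in each interaction of GFP+ sBC. With the numbers of 1 group exchanged, chosen after seeing the data because of correlations under -0.1, 6 were called in IP-Ribo and 6 in Ribo of DE over hPSC and 0 between IP-Ribo and Ribo in hPSC. In the sort, 7 members were called with no filter and 3 to 7 with 1 library left out. With 1 library left out, 4 to 6 were called in RNA of GFP+ sBC over hPSC, 0 to 6 in Ribo of DE over hPSC, and 2 to 4 in the interaction of GFP+ sBC over DE, with 2 without DE IP-Ribo replicate 2. Between IP-Ribo and Ribo in DE, no filter called 2 members and DESeq2 called 1. The share of all genes called under each of these other settings is not given here. These counts therefore describe how far the members' calls move and are not set against a background. Some values with no call changed sign. Leaving out 1 library, KRT19 RNA in GFP- sBC over DE ranged from -1.01 to 0.26, CFTR in IP-Ribo of DE over hPSC from -3.12 to 1.91, and the interaction of GFP+ sBC over DE from -0.19 to 0.68 for KRT19, with -0.15 among these, and from -1.41 to 0.04 for KRT7. For the interaction of DE over hPSC, KRT18 was -0.10 with RLE factors, -0.19 with no filter, -0.10 with DESeq2, -0.10 with protein-coding genes only, -0.20 with Ribo in place of IP-Ribo and -0.54 to 0.26 with 1 library left out. KRT19 was -0.06 and PROM1 0.00 with Ribo in place, and leaving out 1 library gave -0.38 to 0.52 for KRT19 and -0.55 to 0.58 for KRT8. For IP-Ribo over Ribo, leaving out 1 library gave -0.18 to 1.01 for KRT7 and -0.3 to 0.01 for SPP1 in hPSC, and -0.28 to 1.71 for SPP1 in DE. The cause was not tested.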
